A study of Mus musculus with 15 samples.

Results

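The genes described here encode the machinery that inspects the sugar chains of newly made proteins in the endoplasmic reticulum (ER) and sends those that fail to fold to the proteasome, a process called ER-associated degradation. They were chosen by name, as a list of 31 mouse genes, and 29 of the 12393 genes measured in the series were on that list. Faf2 and Rnf139 have no probe set named here and have no values below. The measured members were read by 51 probe sets, the groups of short oligonucleotides that report a transcript on an Affymetrix array. Liver RNA was hybridised to 15 arrays, 3 mice in each of 5 groups, all labelled as males aged 3 months. The Z4 mice carried an inducible human alpha1-antitrypsin transgene of the mutant Z form and expressed it, and the Z1 mice carried it but did not express it. The M4 and M1 mice were the corresponding expressing and non-expressing mice with the wild type M form. The WT mice were littermates without a transgene. Z1 and M1 mice had doxycycline in the drinking water, at 40 µg per mL from conception, which kept the transgene off, and Z4, M4 and WT mice did not, so transgene expression and doxycycline cannot be told apart in a comparison of Z4 with Z1 or of M4 with M1. Expression was restricted to hepatocytes, per the labels, which do not name the promoter or the mouse strain. The human transcript itself was not read, so its expression rests on the labels.

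Alpha1-antitrypsin is a glycoprotein and protease inhibitor that hepatocytes secrete. Glucosidases trim the glucoses of its sugar chains so that the lectin chaperones calnexin and calreticulin can bind and release it, a glucosyltransferase marks unfolded copies for another round, and mannosidases cut mannoses from copies that stay too long. Lectins then pass the trimmed protein to a membrane ligase built around SYVN1 (HRD1) and SEL1L, ubiquitin-conjugating enzymes supply the ubiquitin, and the ATPase VCP (p97) with its partners pulls the protein into the cytosol. The Z form polymerises in the ER and is a known substrate of this pathway, and many of its genes are targets of the unfolded protein response, the set of transcription factors (ATF6, XBP1 and ATF4) that answers to unfolded protein in the ER.

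Values are linear probe set signals as deposited. The log2 changes are those of the signal plus 16, tested with limma over all genes, and a gene was called, and is said to have risen or fallen, where its Benjamini-Hochberg adjusted p was under 0.05. Where several probe sets read a gene, that with the highest mean was used. Beside a call, the arrays whose omission ended it are named, and other settings that ended calls are counted in the closing section.

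Several measures of the arrays moved with the groups. The median signal was 47.8 to 52.5 in Z4 and 43.9 to 54.9 in M4, against 32 to 32.2 in Z1, 30.4 to 31.3 in M1 and 42.3 to 44.9 in WT, although the deposited values share one trimmed mean. The median of the poly-A spike-in control probe sets was 2 to 2.3 in Z4 and 3.7 to 5.2 in M4, against 45.9 to 48.3 in Z1, 42.6 to 57.9 in M1 and 33.8 to 37.6 in WT. Signal at the 5′ end of 18S rRNA was 1879.9 to 2666 in Z4 and 1830 to 2680.7 in M4, against 165.6 to 568.1 in Z1, 154.4 to 442 in M1 and 75 to 285.8 in WT. All 7 hepatocyte markers were detected above the added constant in every group, and their summed signal was 44278.1 to 48700 in Z4, 50189.4 to 59590.6 in Z1, 45211.3 to 54733.7 in M4 and 51303.7 to 57002.5 in M1, against 76324.4 to 89132 in WT. In whole liver, fewer cells of a type and less RNA per cell cannot be told apart. The highest signal on an array differed too, at 16770 to 22995.4 in WT and 8019.2 to 12314.4 in the other groups. Tat, the dimmest of these hepatocyte markers, averaged 3301.5 in WT and 2932.7 to 3309.5 in the other groups. The summed signal of 7 Kupffer cell markers was 2314.3 to 2746 in M4 against 1347.8 to 1405.1 in M1, and 1142.1 to 1440.4 in Z4 against 1076.3 to 1644.9 in Z1. That of 4 endothelial markers was 411.9 to 450 in Z4 against 236.9 to 301.3 in Z1, and 496.6 to 579.4 in M4 against 231.8 to 281.9 in M1. That of 4 plasma and B cell markers was 146.5 to 198.5 in Z4 against 85 to 99.8 in Z1, and 189 to 214.9 in M4 against 42.3 to 89.6 in M1. No marker list was at 0 in a group, and 2 of these 4 B cell markers averaged below 16 in Z1 and in M1. The summed signals of 4 cholangiocyte and 2 adipocyte markers were at most 89.4 and 20.3 on any array. That of 4 stellate cell markers was 410.3 to 500.8 in Z4 against 282.6 to 363.3 in Z1, and 171.4 to 464.3 in M4 against 224.5 to 284.5 in M1. Rgs5 was the brightest of these 4 in every group and read 63.7 to 340 in M4 against 189.2 to 242.1 in M1. Des averaged 62.3 in M4 against 15.1 in M1 and Col1a1 33.3 against 11.6, whereas Lrat averaged 14.3 against 17.5. Exocrine pancreas markers varied within Z1, where the summed signal of 6 of them was 752.5 to 1734.8 and Ctrb1 reached 416.3, against at most 54.9 for Ctrb1 in the other groups. The M4 arrays did not have the sex-linked signals of the other groups. Xist, a female-specific transcript, read 1149.2, 226 and 32.6 on M4 1, M4 2 and M4 3, and at most 74.3 in the other groups. The Y-linked Eif2s3y read 0.4, 1.3 and 42.1 there, Uty 4.6 to 8.5 and Kdm5d 11.4 to 23.2, each below every array of the other groups (at least 105.3, 22.8 and 43.6). The part that any of these differences had in the results below was not tested. Each result on M4 from the probe set used for a member is given with and without arrays M4 1 and M4 2, and without M4 2 and M4 3, where that changes it. Results on other probe sets of members, and on named genes outside the members, are given with all arrays only, so their dependence on these arrays was not tested.

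The members were not shifted together when a transgene was on. In Z4 against Z1, 11 of the 29 rose (37.9%) and 2 fell (6.9%), beside 31.8% of all genes that rose and 7.56% that fell. In M4 against M1, 6 rose (20.7%) and 7 fell (24.1%), beside 38.1% and 12.5% of all genes. The median log2 change of the members was 0.15 in the Z line against 0.25 for all genes, and 0.03 in the M line against 0.29 for all genes. The share of rises among all called genes depended on the scaling of the arrays: it was 80.8% in the Z line and 75.4% in the M line as deposited, and 59.7% and 60.2% after quantile normalization, where the medians of all genes were 0.05 and 0.10. Where the test of a member's own probe set is given for these comparisons, and for Z1 or M1 against WT, its log2 change is therefore followed by its distance from the all-gene median.

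Sel1l, Os9, Nploc4 and Ube2j2 rose in both lines, and Derl1 and Derl2 fell in both. The 7 members called in the Z line alone all rose, namely Herpud1, Syvn1, Dnajc10, Uggt1, Ube2g2, Ube2j1 and Ganab. Of the 7 called in the M line alone, Prkcsh and Rnf5 rose and Edem3, Erlec1, Ngly1, Ubxn4 and Ubxn2a fell. Whether the lines differ in a member is a separate test, given further on, which only Herpud1 passed. The other 9 members were called in neither line: Edem1, Edem2, Man1b1, Derl3, Vcp, Ufd1, Ube2g1, Rad23b and Mogs. The plot of both on-off changes by role shows this split.

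**Figure D1:**
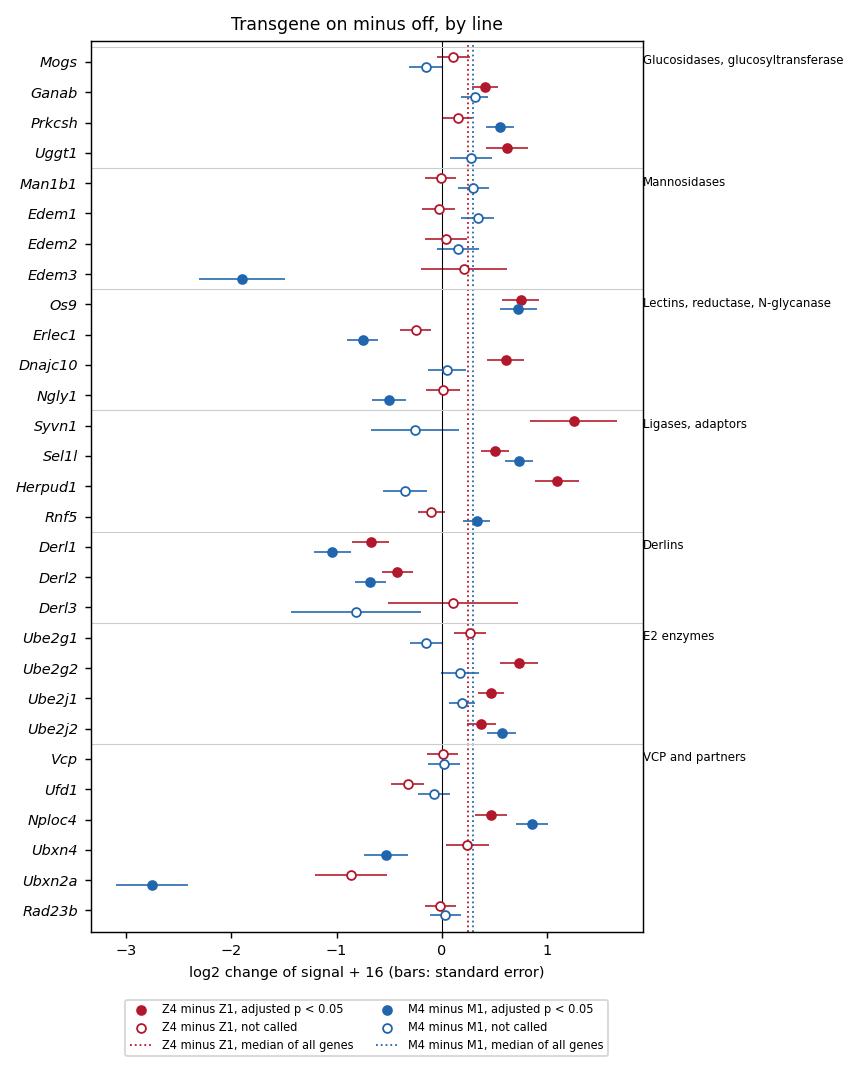
Each row is a member, grouped by role, and the horizontal axis is the log2 change of signal + 16 in Z4 minus Z1 (red) and M4 minus M1 (blue), with bars of 1 standard error. Filled points passed the test and open ones did not, and the dotted lines are the medians of all genes (0.25 and 0.29). Ubxn2a and Edem3 lie far to the left in the M line (-2.75 and -1.90), and Syvn1 and Herpud1 far to the right in the Z line (1.25 and 1.09).

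Herpud1 encodes HERP, a membrane protein that helps to assemble the SYVN1 ligase complex and is among the most strongly inducible genes of the unfolded protein response. Syvn1 encodes the ligase itself, and Derl3 encodes a derlin, a membrane protein of the retrotranslocation step that is induced by ER stress. The promoters of these 3 members are shown because the windows searched, from 250 bases before the transcript start to 50 after it, hold ER stress elements in them. The sequences are from RefSeq for GRCm38.p6, the 250 bases before the start on the gene's strand, with the motifs in capitals. Herpud1 lies at chr8:94386179-94386428 on the + strand, Syvn1 at chr19:6046326-6046575 on the + strand and Derl3 at chr10:75893148-75893397 on the + strand.
Herpud1: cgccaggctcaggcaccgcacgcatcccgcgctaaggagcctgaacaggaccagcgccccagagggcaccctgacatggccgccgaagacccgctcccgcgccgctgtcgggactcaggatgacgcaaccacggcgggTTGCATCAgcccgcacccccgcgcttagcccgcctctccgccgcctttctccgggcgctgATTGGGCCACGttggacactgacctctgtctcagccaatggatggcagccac
Syvn1: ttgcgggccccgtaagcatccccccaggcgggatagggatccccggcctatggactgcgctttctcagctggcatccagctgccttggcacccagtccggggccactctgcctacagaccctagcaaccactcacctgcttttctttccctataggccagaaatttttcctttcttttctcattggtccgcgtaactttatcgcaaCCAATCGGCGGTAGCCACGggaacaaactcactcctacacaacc
Derl3: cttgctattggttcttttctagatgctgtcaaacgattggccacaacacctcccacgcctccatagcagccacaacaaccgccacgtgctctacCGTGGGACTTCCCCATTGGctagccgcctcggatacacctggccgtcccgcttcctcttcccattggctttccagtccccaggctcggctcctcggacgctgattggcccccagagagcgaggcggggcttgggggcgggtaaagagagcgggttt
The ER stress element, which ATF6 binds with the factor NF-Y, is CCAAT and CCACG with 9 bases between them. It was searched on both strands and lay at bases -44 to -26 of the Syvn1 promoter and, on the opposite strand, at bases -156 to -138 of Derl3. Among the 28 promoters that the table gives for 26 of the members, 2 (7.14%) held it, against 39 of 32851 promoters of all genes (0.119%). The shorter ER stress element II, ATTGG and CCACG with 1 base between them, lay at bases -52 to -42 of Herpud1, in 1 of the 28 member promoters (3.57%) and in 12 of all (0.0365%). Herpud1 also held the ATF4-type element TTGCATCA at bases -112 to -105, which 294 promoters of all genes hold (0.895%). The core TGACGTGG of the element that XBP1 and ATF6 bind was in the promoters of Ube2j1 and Vcp (7.14% of member promoters) and in 222 of all (0.676%). These motifs do not overlap one another in the sequences printed, and a match describes letters and not a bound site. Promoters of Derl1, Erlec1, Ube2g2, Rnf5 and Rnf139 were not searched.

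Of these 3 genes, Herpud1 and Syvn1 rose with the Z transgene. Herpud1 signal was 2269.5, 2264.7 and 3235.9 in Z4, against 1421.5, 956.9 and 1244.8 in Z1. All Z4 arrays lay above all Z1 arrays, and the rise was 2.13-fold (log2 change 1.09, SE 0.21, 0.84 relative to all genes, adjusted p = 0.00108). This call held under every alternative tried, and the second Herpud1 probe set changed alike (log2 change 1.10, adjusted p = 0.00158). With the M transgene Herpud1 read 1425.5, 1934.7 and 2127.7 in M4, against 2534.6, 2184.9 and 2210.3 in M1. Here the M4 arrays all lay below the M1 arrays, but the difference was not called (log2 change -0.35, SE 0.21, -0.65 relative to all genes, adjusted p = 0.173).

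Without a transgene Herpud1 read 3341.7, 2431.5 and 2327.8 in WT, and all Z1 arrays lay below all of these and below the M1 arrays. Z1 was lower than WT (log2 change -1.15, SE 0.21, -0.96 relative to all genes, adjusted p = 0.00199), a call that held under every alternative, while on the second probe set it was not called (log2 change -0.57, adjusted p = 0.0754). Z4 overlapped WT and did not pass the test against it (log2 change -0.06, SE 0.21, adjusted p = 0.887), nor on the second probe set (log2 change 0.53, adjusted p = 0.134). The M4 arrays also lay below all WT arrays, at the edge of the threshold (log2 change -0.56, SE 0.21, adjusted p = 0.0641), and were called lower with the filter on dim genes (adjusted p = 0.0453) and with the intensity trend and robust spread (adjusted p = 0.0421). The comparisons of Z4 with Z1 and of Z1 with WT share the Z1 arrays. The difference between the lines in the on-off change of Herpud1, the interaction, was 1.44 (SE 0.29, adjusted p = 0.0457), the one member called of 29, higher in the Z line, beside 0.307% of all genes called higher and 0.307% called lower.

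**Figure D2:**
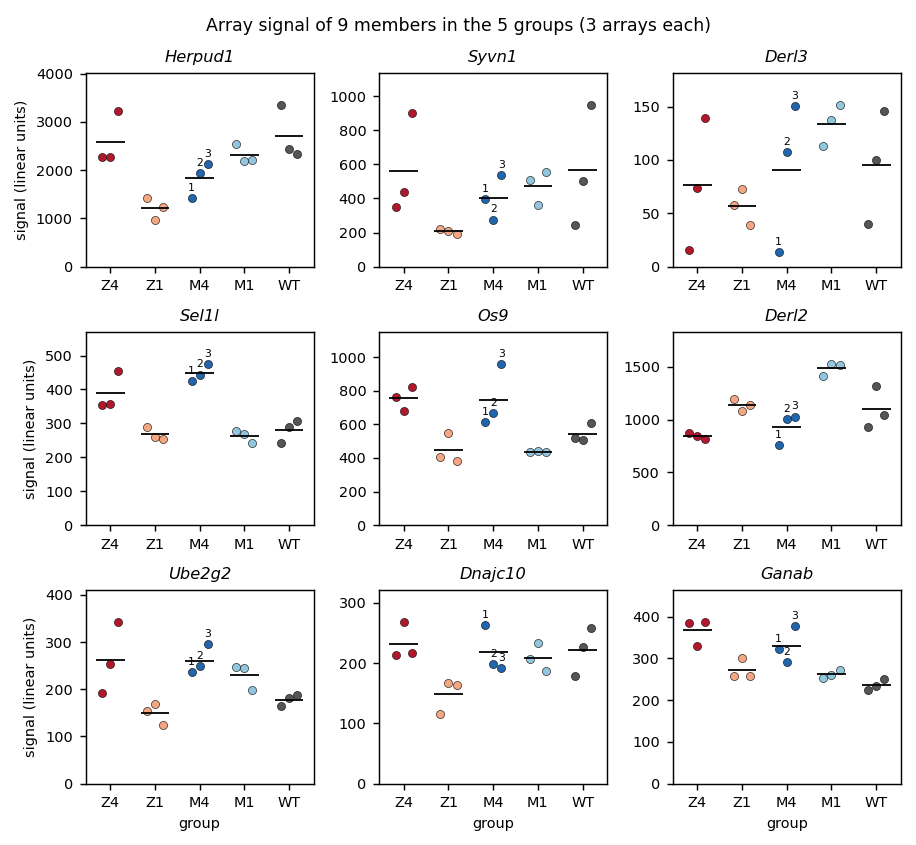
Each panel is a member and each point an array, with linear signal as deposited on the vertical axis, groups ordered Z4, Z1, M4, M1 and WT, and horizontal bars at the group means. Herpud1 in Z1 (956.9 to 1421.5) lies under the 12 other arrays, and Syvn1 and Derl3 spread widely within Z4 and WT.

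Syvn1 spread more than Herpud1. Its signal was 347.8, 435.1 and 904.3 in Z4, against 221.2, 210.5 and 193 in Z1. Every Z4 array lay above every Z1 array, with array Z4 3 far above the other two (log2 change 1.25, SE 0.41, 1.00 relative to all genes, adjusted p = 0.028). The call was lost without Z4 replicate 3 or without any one of the Z1 replicates, with an adjusted p of up to 0.137. Syvn1 read 397.1, 275.5 and 535.2 in M4 and 506.7, 363.5 and 552.6 in M1, and the groups overlapped (log2 change -0.25, SE 0.41, -0.55 relative to all genes, adjusted p = 0.634). WT read 244.1, 503.4 and 945.8, a range that covers all Z4 arrays and lies above all Z1 arrays. The interaction of Syvn1 was 1.50 (SE 0.59, adjusted p = 0.247).

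Derl3, the remaining member with an ER stress element, read 16, 73.8 and 139.3 in Z4, against 57.5, 72.6 and 39.1 in Z1. Derl3 read 13.7, 107 and 150.3 in M4, against 113, 137.4 and 151.1 in M1, and in WT 40.2, 100.1 and 145.6. The arrays numbered 1 of Z4, M4 and WT were low and those numbered 3 high, so the groups overlapped and no comparison was called (log2 change 0.10, SE 0.62, -0.14 relative to all genes, adjusted p = 0.91 and log2 change -0.81, SE 0.62, -1.11 relative to all genes, adjusted p = 0.287). Arrays M4 1 and M4 2 lay below all M1 arrays, and M4 3 lay within them. Without arrays M4 2 and M4 3, which leaves only M4 1 in its group, the log2 change from M1 was -2.33.

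Sel1l encodes the adaptor that stabilises SYVN1 and receives its substrates. It read 354.5, 357.7 and 455.2 in Z4, against 289.6, 261 and 253.8 in Z1, and 423.5, 443.9 and 475.3 in M4, against 278.9, 268.5 and 241.7 in M1. Expressing and non-expressing arrays did not overlap in either line, and Sel1l rose in both, in Z4 (log2 change 0.50, SE 0.13, 0.26 relative to all genes, adjusted p = 0.00854) and in M4 (log2 change 0.73, SE 0.13, 0.44 relative to all genes, adjusted p = 0.0005). These calls held under every alternative tried. The WT arrays, at 243.5, 290 and 306.4, lay among or near the non-expressing ones and below all arrays of Z4 and M4. Sel1l was above WT in M4 (log2 change 0.65, SE 0.13, adjusted p = 0.00399), except without arrays M4 2 and M4 3 (adjusted p = 0.0773), and in Z4 (log2 change 0.45, SE 0.13, adjusted p = 0.0403), where leaving out any array of Z4, WT replicate 1 or WT replicate 2 ended the call. The Sel1l call in Z4 against WT was also lost after quantile normalization. All 4 Sel1l probe sets changed upward in both lines, the largest change being 1.49 in the Z line (adjusted p = 0.000362), and one missed the threshold there (log2 change 0.42, adjusted p = 0.0598).

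Rnf5 encodes a separate ER membrane ligase. It read 597.7, 532.9 and 583.9 in Z4 and 596.5, 722.1 and 535.7 in Z1, where the groups overlapped (log2 change -0.10, SE 0.13, -0.35 relative to all genes, adjusted p = 0.559). In the M line it read 748.2, 792.4 and 742 in M4, against 582.4, 635.5 and 588.8 in M1, without overlap (log2 change 0.33, SE 0.13, 0.04 relative to all genes, adjusted p = 0.0431), a call that was lost when any one array of M4 or M1, or either pair of M4 arrays, was left out. WT was the lowest group, at 473.2, 407.6 and 406, below every transgenic array. Rnf5 was above WT in M4 (log2 change 0.81, SE 0.13, adjusted p = 0.000991), a call that held under every alternative. It was also above WT in Z1 (log2 change 0.50, SE 0.13, 0.69 relative to all genes, adjusted p = 0.0117) and in M1 (log2 change 0.48, SE 0.13, 0.67 relative to all genes, adjusted p = 0.0141), calls lost without Z1 replicate 2 and without M1 replicate 2. The call in M1 was also lost after quantile normalization.

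Derl1 and Derl2 encode derlins that form the channel-like part of the retrotranslocation machinery. On the probe set used, Derl1 read 394.6, 482.5 and 340.7 in Z4, against 572.7, 680.4 and 712.1 in Z1. It read 225.3, 260.4 and 349.6 in M4, against 478.2, 633.4 and 645.2 in M1, and 443.1, 486.2 and 466.9 in WT. The groups did not overlap in either line, and this probe set fell in Z4 (log2 change -0.68, SE 0.18, -0.93 relative to all genes, adjusted p = 0.00849) and in M4 (log2 change -1.04, SE 0.18, -1.34 relative to all genes, adjusted p = 0.000325), under every alternative. Another Derl1 probe set did the opposite and rose in both lines, with a log2 change of 0.56 in the Z line (adjusted p = 0.00918) and 0.77 in the M line (adjusted p = 0.000852), and the other two were not called. The direction given for Derl1 thus depends on the probe set, for reasons that were not tested. M4 against WT shows the same split, at -0.73 on the probe set used (adjusted p = 0.0102, lost without arrays M4 1 and M4 2) and 0.78 on the opposing one (adjusted p = 0.00267).

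Derl2 read 871.8, 841.2 and 815.5 in Z4, against 1194.2, 1081.4 and 1136.9 in Z1. It read 757.1, 1000.4 and 1026.6 in M4, against 1415, 1526.6 and 1517.2 in M1, and in WT 928.4, 1321.5 and 1043.2. Neither line's groups overlapped. The fall in M4 (log2 change -0.68, SE 0.15, -0.98 relative to all genes, adjusted p = 0.00174) held under every alternative, whereas that in Z4 (log2 change -0.42, SE 0.15, -0.67 relative to all genes, adjusted p = 0.0344) was lost without any one array of Z4 or Z1 and after quantile normalization. M1 was above WT (log2 change 0.45, SE 0.15, 0.64 relative to all genes, adjusted p = 0.0387), a call lost after quantile normalization and without any one array of M1, WT replicate 1 or WT replicate 3. A second Derl2 probe set was called in neither line, with log2 changes of 0.23 in Z4 minus Z1 and -0.16 in M4 minus M1.

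**Figure D3:**
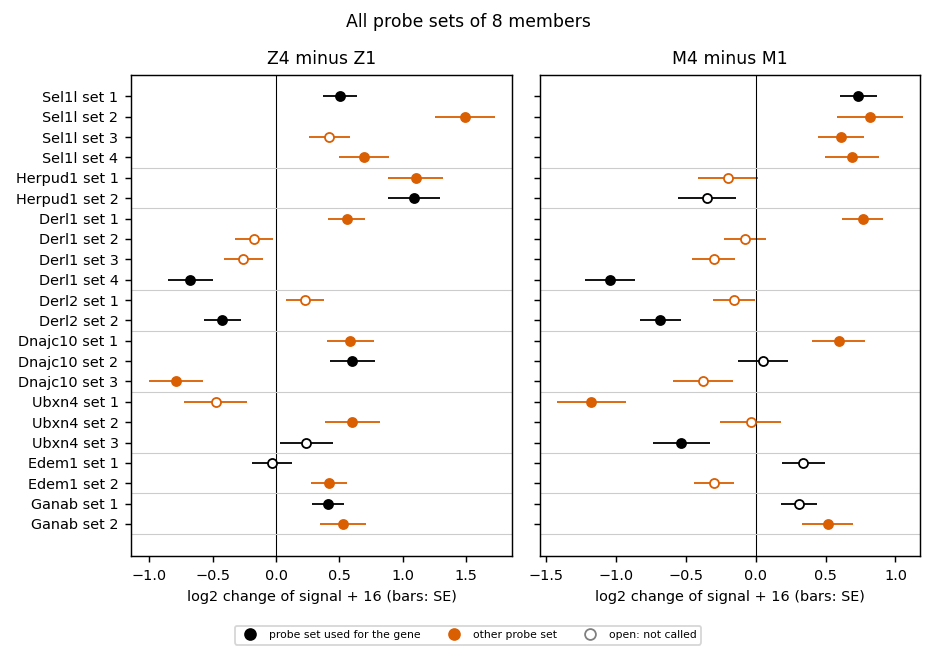
Each row is one probe set of a member with several, and the horizontal axes are the log2 changes of signal + 16 in Z4 minus Z1 and M4 minus M1, with bars of 1 standard error. Black marks the probe set used for the gene and orange the others, and open points were not called. The 4 Sel1l sets lie on one side of 0, while Derl1 has called sets on both sides (0.56 and -0.68 in the Z line).

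Of the 4 genes of glucose trimming and re-marking, Ganab and Uggt1 rose in the Z line, Prkcsh rose in the M line and Mogs was not called. Ganab encodes the catalytic subunit of glucosidase II, which removes the inner glucoses and so controls binding to calnexin. It read 384.8, 330 and 386.2 in Z4, against 257.9, 302 and 258.5 in Z1, and 321.9, 291.1 and 377.4 in M4, against 252.8, 260.5 and 272.3 in M1. Expressing arrays lay above non-expressing ones in both lines, and the change was called in the Z line (log2 change 0.41, SE 0.13, 0.16 relative to all genes, adjusted p = 0.0199) and not in the M line (log2 change 0.31, SE 0.13, 0.02 relative to all genes, adjusted p = 0.0534), where it was called without M4 replicate 2 (adjusted p = 0.0336) and without arrays M4 1 and M4 2 (log2 change 0.50, adjusted p = 0.0279). The call in the Z line was lost without Z4 replicate 1 or 3 or Z1 replicate 1 or 3. WT read 223.5, 234.1 and 250, below every Z4 and M4 array. Ganab was above WT in Z4 (log2 change 0.60, SE 0.13, adjusted p = 0.00753), under every alternative tried, and in M4 (log2 change 0.45, SE 0.13, adjusted p = 0.0192), where leaving out M4 replicate 3, WT replicate 1 or arrays M4 2 and M4 3 ended the call. A dim second probe set rose in both lines and was not called against WT (log2 change -0.07 in Z4 and -0.23 in M4).

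Prkcsh, the regulatory subunit of glucosidase II, averaged 506.4 ± 66.1 in M4 and 339.7 ± 26.9 in M1 (SD, n = 3 each), without overlap, and rose (log2 change 0.55, SE 0.14, 0.26 relative to all genes, adjusted p = 0.00429), except without arrays M4 2 and M4 3 (adjusted p = 0.115). In the Z line it was not called (log2 change 0.15, SE 0.14, -0.10 relative to all genes, adjusted p = 0.414). Uggt1, the glucosyltransferase that re-marks unfolded glycoproteins, averaged 108.6 ± 9.14 in Z4 and 65.5 ± 10.5 in Z1 (SD, n = 3 each). It rose in Z4 without overlap of the arrays (log2 change 0.62, SE 0.20, 0.37 relative to all genes, adjusted p = 0.0247), a call lost after quantile normalization, without Z4 replicate 2 or 3 and without Z1 replicate 1 or 3. In the M line it was not called (log2 change 0.28, SE 0.20, -0.02 relative to all genes, adjusted p = 0.264). Mogs, glucosidase I, which removes the outermost glucose, was called in no comparison, with group means between 270.8 and 343.8.

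Among the mannosidases, only Edem3 was called, and in M4. EDEM proteins remove mannoses from misfolded glycoproteins and so commit them to degradation. Edem3 read 271.7, 50.9 and 51.7 in M4, against 384.1, 396.3 and 391.5 in M1, and 362.5, 491.4 and 456.1 in WT. Array M4 1 lay just under the lowest of the other groups, and M4 2 and M4 3 lay far below. The fall was called against M1 (log2 change -1.90, SE 0.41, -2.19 relative to all genes, adjusted p = 0.0017) and against WT (log2 change -2.04, SE 0.41, adjusted p = 0.00361), but without arrays M4 2 and M4 3 the log2 changes were -0.50 (adjusted p = 0.123) and -0.64 (adjusted p = 0.111). In the Z line it read 294.8, 313.8 and 467.1 in Z4, against 321.9, 310.5 and 274.9 in Z1, and the groups overlapped (log2 change 0.21, SE 0.41, -0.04 relative to all genes, adjusted p = 0.719).

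Edem1, the family member most often used as a marker of ER stress, read 393.5, 571.5 and 601.6 in Z4, against 544.8, 523.1 and 509.3 in Z1, so that the groups overlapped (log2 change -0.03, SE 0.16, -0.28 relative to all genes, adjusted p = 0.892). Edem1 read 724.3, 592 and 631.3 in M4, against 496.3, 458.7 and 574.1 in M1, and in WT 477.6, 526 and 532.1. The M4 arrays lay above the M1 and WT arrays without a call (log2 change 0.34, SE 0.16, 0.05 relative to all genes, adjusted p = 0.0834). A second Edem1 probe set rose in Z4 (log2 change 0.42, adjusted p = 0.0337) and was not called in M4 (log2 change -0.30, adjusted p = 0.103), opposite in sign on both counts to the set used. Edem2 and Man1b1, the ER mannosidase I that makes the first cut, were called in no comparison, with Edem2 means between 247.7 and 326.7 and Man1b1 means between 45.2 and 59.4.

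The lectins Os9 and Erlec1 (XTP3-B) both bind mannose-trimmed chains and hand the protein to SEL1L. Os9 read 764.5, 678.1 and 823.4 in Z4, against 408.4, 550.4 and 382.6 in Z1, and 612.3, 668.8 and 960.1 in M4, against 436.1, 440.1 and 434.9 in M1. Expressing arrays lay above non-expressing arrays in both lines, and Os9 rose in Z4 (log2 change 0.75, SE 0.18, 0.50 relative to all genes, adjusted p = 0.00412) under every alternative and in M4 (log2 change 0.73, SE 0.18, 0.43 relative to all genes, adjusted p = 0.00356), except without arrays M4 2 and M4 3 (adjusted p = 0.0917). WT read 516.9, 506.3 and 609 and lay below all arrays of Z4 and M4. A second Os9 probe set was not called in either line (log2 change -0.09 in Z4 minus Z1 and 0.12 in M4 minus M1), though it was above WT in both Z4 (log2 change 0.84, adjusted p = 0.00951) and M4 (log2 change 0.92, adjusted p = 0.00347). The non-expressing groups lay above WT on it as well. It averaged 162.7 in Z4, 177.0 in Z1, 175.6 in M4 and 157.3 in M1, against 83.4 in WT.

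Erlec1 read 180.2, 192 and 186.9 in M4, against 314.3, 374.3 and 290.5 in M1, and 336.1, 251 and 250.4 in WT. All M4 arrays lay below those of M1 and WT, and the fall was called against M1 (log2 change -0.75, SE 0.15, -1.05 relative to all genes, adjusted p = 0.000885) under every alternative. Against WT it was called too (log2 change -0.53, SE 0.15, adjusted p = 0.019), except without WT replicate 1 and without either pair of M4 arrays. In the Z line it read 214, 193.7 and 229.4 in Z4 and 282.4, 267.1 and 218.7 in Z1, where the groups overlapped (log2 change -0.25, SE 0.15, -0.50 relative to all genes, adjusted p = 0.201). A dim second probe set was not called in either line.

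Dnajc10 encodes ERdj5, a reductase that opens disulfide bonds before a protein is moved out. It read 212.7, 267.7 and 217.3 in Z4, against 115.3, 167 and 163.5 in Z1, and 179.3, 226.9 and 258.4 in WT. Z4 lay above Z1 without overlap and overlapped WT. The rise (log2 change 0.60, SE 0.18, 0.35 relative to all genes, adjusted p = 0.0161) was lost after quantile normalization and without Z4 replicate 2 or Z1 replicate 1. Z1 was below WT (log2 change -0.53, SE 0.18, -0.34 relative to all genes, adjusted p = 0.044), a call lost after quantile normalization and when any array of Z1, WT replicate 2 or WT replicate 3 was left out. The same probe set read 263.2, 198.4 and 192.3 in M4 and 206.6, 233 and 187.2 in M1, and the groups overlapped (log2 change 0.05, SE 0.18, -0.25 relative to all genes, adjusted p = 0.839). Its probe sets disagreed: a second rose alike in Z4 (log2 change 0.59, adjusted p = 0.025), and the remaining, dimmer one fell (log2 change -0.79, adjusted p = 0.0113). Unlike the set used, the second also lay higher in M4 (242.9 to 262.6) than in M1 (153.9 to 169.6), without overlap. A higher Dnajc10 signal in the Z line alone thus depends on the probe set.

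Ngly1, the cytosolic N-glycanase that strips the sugar chain from retrotranslocated proteins, read 394.2, 260.6 and 221.7 in M4, against 386.5, 442 and 402 in M1, and 460, 422.4 and 429.7 in WT. Array M4 1 lay within M1, and M4 2 and M4 3 lay below every other array. The fall was called against M1 (log2 change -0.50, SE 0.16, -0.80 relative to all genes, adjusted p = 0.0183) and WT (log2 change -0.60, SE 0.16, adjusted p = 0.0172). It was not called without M4 replicate 2, without M4 replicate 3 or without both (log2 change against M1 -0.05, adjusted p = 0.801), nor against M1 without M1 replicate 2 or against WT without WT replicate 1. In the Z line the signal was nearly constant, at 455.9, 447.2 and 452.5 in Z4 and 449.3, 446.6 and 446.6 in Z1 (log2 change 0.01, SE 0.16, -0.24 relative to all genes, adjusted p = 0.956).

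Of the 4 ubiquitin-conjugating enzymes, 3 rose in the Z line, where 31.8% of all genes rose. Ube2g2, the partner of ER ligases that is the homologue of yeast Ubc7, read 192.3, 254.4 and 341.6 in Z4, against 153.3, 168.9 and 124.3 in Z1. The groups did not overlap and the rise held under every alternative (log2 change 0.73, SE 0.18, 0.48 relative to all genes, adjusted p = 0.00617). In the M line it read 236.6, 248.3 and 295 in M4 and 246.3, 244.5 and 197.9 in M1, with overlap (log2 change 0.17, SE 0.18, -0.13 relative to all genes, adjusted p = 0.463), and in WT 164.2, 181.3 and 187.5. A dim second Ube2g2 probe set was not called in the Z line and had the opposite sign (log2 change -0.47, adjusted p = 0.141).

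Ube2j1, a tail-anchored enzyme of the ER membrane, read 196.4, 187.3 and 208.6 in Z4, against 133.7, 159.8 and 123.2 in Z1. It rose without overlap (log2 change 0.47, SE 0.12, 0.22 relative to all genes, adjusted p = 0.00821), a call lost after quantile normalization (adjusted p = 0.0746), and its second probe set was not called (log2 change -0.31, adjusted p = 0.176). In the M line it read 173.5, 181.1 and 199 in M4, against 149.5, 168.1 and 161.8 in M1, without overlap and without a call (log2 change 0.19, SE 0.12, -0.11 relative to all genes, adjusted p = 0.214). WT read 168.7, 185.3 and 201, above all Z1 arrays, and Z1 was lower than WT (log2 change -0.38, SE 0.12, -0.19 relative to all genes, adjusted p = 0.0368). That call was lost after quantile normalization and without Z1 replicate 1 or 3 or WT replicate 2 or 3. Its relative Ube2j2 averaged 318.2 ± 45.1 in Z4 and 241.9 ± 33.4 in Z1, and 308.5 ± 5.94 in M4 and 203.9 ± 18.4 in M1 (SD, n = 3 each). It rose in M4 (log2 change 0.56, SE 0.14, 0.27 relative to all genes, adjusted p = 0.00411), except without arrays M4 2 and M4 3 (adjusted p = 0.0508). It also rose in Z4 (log2 change 0.37, SE 0.14, 0.12 relative to all genes, adjusted p = 0.0475), where the arrays overlapped. That call was lost after quantile normalization and without Z4 replicate 1 or 2 or Z1 replicate 1 or 3. Ube2g1, the remaining one, was called with all arrays only against WT, in M4 (log2 change -0.50, SE 0.15, adjusted p = 0.0298), where it averaged 477.6 ± 126.9 against 667.5 ± 47.3 in WT (SD, n = 3 each). That call was lost without M4 replicate 2 or 3, without both, and without WT replicate 1 or 2. Against M1 it was called lower without M4 replicate 1 (log2 change -0.35, adjusted p = 0.0313) and without arrays M4 1 and M4 2 (log2 change -0.49, adjusted p = 0.0174).

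Vcp, the ATPase at the end of the pathway, read 1679.4, 1827.3 and 1555.6 in Z4, against 1735, 1878.9 and 1448.2 in Z1. Vcp read 1559.6, 1316.5 and 1762.4 in M4, against 1391.4, 1497.4 and 1667.6 in M1, and in WT 1305.8, 1260.5 and 1588.7. All groups overlapped, and Vcp was called neither in the Z line (log2 change 0.01, SE 0.15, -0.24 relative to all genes, adjusted p = 0.982) nor in the M line (log2 change 0.02, SE 0.15, -0.28 relative to all genes, adjusted p = 0.925). A second Vcp probe set, with a mean signal below the added constant, fell in M4 against M1 (log2 change -1.24, adjusted p = 0.00731). Its cofactor Ufd1 and the shuttle factor Rad23b, which carries ubiquitinated proteins to the proteasome, were called in no comparison.

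Nploc4 encodes NPL4, the cofactor that joins VCP as a pair with UFD1. It read 282.9, 233.1 and 291 in Z4, against 196, 224.5 and 153.9 in Z1, and 269.9, 337.8 and 364.6 in M4, against 173.4, 178.9 and 159.4 in M1. Neither pair of groups overlapped. The rise in M4 (log2 change 0.86, SE 0.15, 0.56 relative to all genes, adjusted p = 0.000419) held under every alternative, and that in Z4 (log2 change 0.47, SE 0.15, 0.22 relative to all genes, adjusted p = 0.0259) was lost after quantile normalization, without Z4 replicate 1 or 3 and without Z1 replicate 1 or 3. WT read 221.4, 204 and 222.3, below every Z4 and M4 array, and M4 was above it (log2 change 0.54, SE 0.15, adjusted p = 0.0198), except without M4 replicate 2, without M4 replicate 3, without both or without WT replicate 2.

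Ubxn2a and Ubxn4 encode UBX-domain proteins that bind VCP. Ubxn2a read 113.2, 22.1 and 21.8 in M4, against 325.9, 377.7 and 408.3 in M1, and 288.2, 300.2 and 313.4 in WT. All M4 arrays lay below every array of M1 and WT, with M4 2 and M4 3 near the added constant, and the fall was called against M1 (log2 change -2.75, SE 0.34, -3.05 relative to all genes, adjusted p = 3.05e-05) and WT (log2 change -2.47, SE 0.34, adjusted p = 0.000495). Both calls held under every alternative, and from array M4 1 alone the log2 changes were -1.58 (adjusted p = 0.000204) and -1.29 (adjusted p = 0.00271). In the Z line it read 169.6, 210.7 and 204.5 in Z4, against 417.1, 342.3 and 341 in Z1, without overlap and without a call (log2 change -0.86, SE 0.34, -1.11 relative to all genes, adjusted p = 0.06). Ubxn2a was called lower in Z4 than in Z1 with a constant of 64 (adjusted p = 0.0167) and after quantile normalization (adjusted p = 0.049). With only the groups compared in the fit, it was called lower in Z4 than in Z1 (adjusted p = 0.00334) and than in WT (adjusted p = 0.0419). A dim second Ubxn2a probe set was not called (log2 change in M4 minus M1 -0.42, adjusted p = 0.215). Ubxn4, a docking protein of the ER membrane also called erasin, averaged 341.1 ± 97.8 in M4 and 489.0 ± 14.9 in M1 (SD, n = 3 each). It fell (log2 change -0.53, SE 0.21, -0.83 relative to all genes, adjusted p = 0.0442), a call lost after quantile normalization and without any one array of M4 2, M4 3 or M1. Without both M4 2 and M4 3 the log2 change was -0.10 (adjusted p = 0.785). A dimmer probe set fell by more (log2 change -1.18, adjusted p = 0.00156) and the remaining one was not called (log2 change -0.04). In the Z line the groups overlapped on the Ubxn4 probe set used, which was not called. The other sets moved in opposite directions there. The dimmer one lay lower in Z4 (71.8 to 77.4) than in Z1 (107.1 to 115.8), and the remaining one lay higher in Z4 (336.5 to 478.4) than in Z1 (217 to 275.7).

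Arrays M4 2 and M4 3 lay together at one end for 6 members. Both were below the other 13 arrays for Edem3, Ngly1, Ube2g1 and Ubxn2a, 4 of 29 members (13.8%) beside 8.5% of all genes, and both were above the other 13 for Nploc4 and Prkcsh, 2 members (6.9%) beside 8.01% of all genes. Array M4 1, which like M4 2 had raised Xist, is one of those other 13, so its place apart from them follows from how these members were picked. For Edem3 and Ubxn2a it was the next lowest array, at 271.7 and 113.2, as the plot of these members shows.

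**Figure D4:**
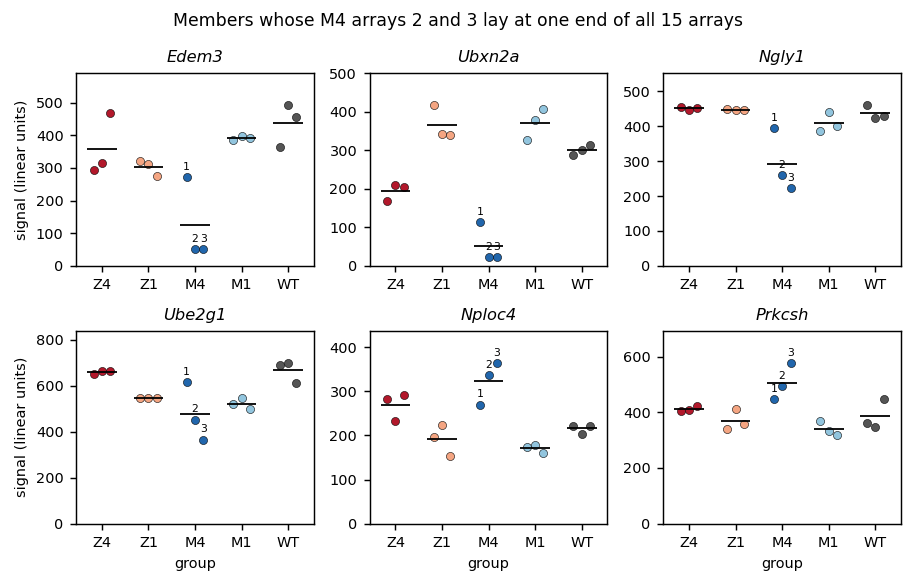
Each panel is a member and each point an array, with linear signal as deposited on the vertical axis and groups ordered Z4, Z1, M4, M1 and WT. Arrays M4 1, M4 2 and M4 3 carry their numbers. For Edem3 the M4 arrays read 271.7, 50.9 and 51.7, and for Ubxn2a 113.2, 22.1 and 21.8.

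The comparison of mutant with wild type protein, Z4 against M4, called members on which arrays M4 2 and M4 3 stood apart. It put 3 of 29 members higher (10.3%) and 0 lower, beside 3.68% and 1.48% of all genes: Ubxn2a (log2 change 1.88, SE 0.34, adjusted p = 0.0128), Edem3 (log2 change 1.75, SE 0.41, adjusted p = 0.0283) and Ngly1 (log2 change 0.64, SE 0.16, adjusted p = 0.0368). At an unadjusted p under 0.05 there were 8 (27.6%), beside 19.7% of all genes. Without arrays M4 2 and M4 3 no member was called, at adjusted p-values of 0.144, 0.703 and 0.738, beside 0.557% of all genes. Without M4 1 and M4 2 there were 5, the same 3 with Ube2g1 higher and Ufd1 lower, beside 10.2% of all genes. Leaving out Z4 replicate 3 or M4 replicate 2 also ended all 3 calls, and those of Edem3 and Ngly1 were lost too without Z4 replicate 1, Z4 replicate 2 or M4 replicate 3. Herpud1 lay higher in all Z4 arrays than in any M4 array without a call (log2 change 0.50, SE 0.21, adjusted p = 0.193), and Syvn1 (log2 change 0.40, SE 0.41, adjusted p = 0.682), Edem1 (log2 change -0.32, SE 0.16, adjusted p = 0.275) and Sel1l (log2 change -0.20, SE 0.13, adjusted p = 0.454) were not called.

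The interaction, the Z-line change minus the M-line change, had a median of 0.26 over the members and -0.04 over all genes, and 10 members (34.5%) had an unadjusted p under 0.05, beside 15.2% of all genes. Besides Herpud1 these were Edem3 (2.10), Ubxn2a (1.89), Syvn1 (1.50), Ubxn4 (0.77), Ube2g2 (0.56), Dnajc10 (0.55), Ngly1 (0.52) and Erlec1 (0.50), all higher in the Z line, and Rnf5 (-0.43). The Herpud1 call was lost with a constant of 1, with all probe sets, with only the 4 groups in the fit, and without any single array of Z4, Z1 or M1 or M4 replicate 2, at adjusted p-values of up to 0.114, and its log2 value stayed between 1.20 and 1.78. Without M4 replicate 1 there were 6 members called, Herpud1, Edem3, Ubxn2a, Ngly1, Ube2g1 and Ubxn4, beside 8.25% of all genes. Without arrays M4 1 and M4 2 the 4 called were Edem3, Ngly1, Ube2g1 and Ubxn2a, beside 6.5% of all genes, and without M4 2 and M4 3 there were 0, beside 0.379%.

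Against WT, few members differed in Z4. Sel1l and Ganab were higher, 2 of 29 (6.9%), and 0 were lower, beside 7.55% of all genes higher and 4.74% lower. The members' median log2 difference was 0.07 and that of all genes 0.06. In M4, 4 were higher (13.8%), namely Sel1l, Rnf5, Nploc4 and Ganab, and 6 were lower (20.7%), namely Edem3, Ubxn2a, Ngly1, Ube2g1, Derl1 and Erlec1, beside 14.6% and 9.48% of all genes. Without arrays M4 1 and M4 2 there were 10 members, 8 of them among these, with Os9 and Prkcsh higher in place of the calls of Derl1 and Erlec1, beside 16.7% of all genes. Without M4 2 and M4 3 there were 3, Rnf5 higher and Derl1 and Ubxn2a lower, beside 9.51%. For M4 against M1 the corresponding counts were 14 members beside 38.4% of all genes and 7 members beside 37.5%.

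The non-expressing groups were compared with WT as well. In Z1, Rnf5 was higher and Herpud1, Dnajc10 and Ube2j1 were lower, 1 and 3 of 29 (3.4% and 10.3%), beside 4.09% and 20.3% of all genes. In M1, Rnf5 and Derl2 were higher and 0 members were lower, beside 3.99% and 22.4% of all genes. Among all called genes the share of rises was 16.8% in Z1 and 15.1% in M1, and 37.8% and 35.1% after quantile normalization. For Z4 against WT it was 61.4%, and 50.6% after quantile normalization.

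Z1 and M1 mice both carried a transgene that was kept silent. No member was called between them by limma, beside 0.0807% of all genes higher and 0.0484% lower, while 6 members (20.7%) had an unadjusted p under 0.05, beside 9.43% of all genes, all 6 lower in Z1. They were Syvn1 (log2 difference -1.11), Herpud1 (-0.94, adjusted p = 0.101), Ube2g2 (-0.58), Dnajc10 (-0.46), Derl2 (-0.38) and Erlec1 (-0.33). Herpud1, Syvn1, Ube2g2 and Dnajc10 are also among the members called in the Z line alone, and that comparison shares the Z1 arrays. The share of rises among the few genes called between Z1 and M1 was 62.5%, and 45.5% after quantile normalization.

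**Figure D5:**
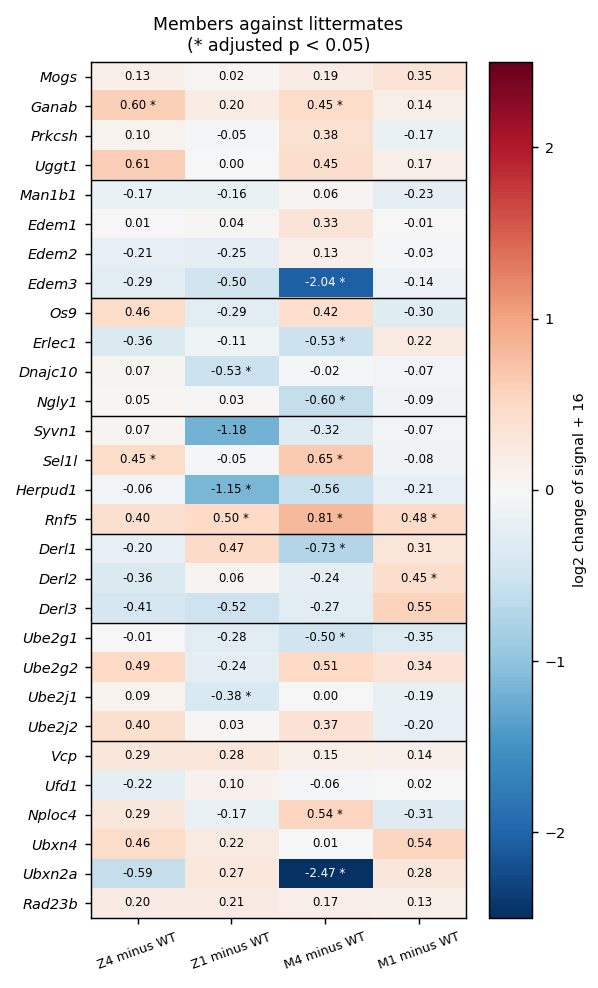
Rows are members and columns the transgenic groups, each cell giving the log2 difference of signal + 16 from WT, with called cells marked. The Z1 column has its lowest values at Syvn1 (-1.18) and Herpud1 (-1.15), and the M4 column at Ubxn2a (-2.47) and Edem3 (-2.04).

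A list of 49 further genes of the same pathway (ligases, docking proteins, lectins and proteasome shuttles), of which 40 were measured, was also split in direction. In Z4 against Z1, 9 rose (22.5%) and 6 fell (15%), beside 31.8% and 7.56% of all genes. In M4 against M1, 9 rose (22.5%) and 7 fell (17.5%), beside 38.1% and 12.5% of all genes. The median log2 changes were 0.18 and -0.02 beside 0.25 and 0.29 for all genes. Lman2, a cargo lectin of the early secretory pathway, averaged 762.2 ± 96.1 in Z4 and 383.4 ± 38.2 in Z1, and 878.8 ± 63.8 in M4 and 442.8 ± 30.2 in M1 (SD, n = 3 each). It rose alike in both lines (log2 change 0.96 in each, adjusted p = 9.87e-05 in the Z line and 5.27e-05 in the M line). Lman1 (ERGIC-53), the lectin that carries alpha1-antitrypsin out of the ER, averaged 1565.3 ± 240.3 in Z4 and 973.0 ± 54.5 in Z1 (SD, n = 3 each) and rose (log2 change 0.67, SE 0.14, adjusted p = 0.00209), and it was not called in the M line (log2 change 0.08, adjusted p = 0.669). The VCP adaptor Ubxn6 rose in both lines (log2 change 0.60 and 0.97), and the proteasome shuttle Ubqln4 rose in the M line (log2 change 0.94) and was not called in the Z line (log2 change 0.45, adjusted p = 0.0776). The interaction was not called for Lman1 (0.59, SE 0.20, adjusted p = 0.187) or for Ubqln4 (-0.50, SE 0.27, adjusted p = 0.412). Fbxo2, a sugar-binding ubiquitin ligase subunit, rose in both (log2 change 1.09 and 1.15), with signals that averaged 27.8 in Z4 against 4.53 in Z1 and 27.3 in M4 against 3.3 in M1, with Z1 and M1 below the constant of 16.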

How the data were processed

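Liver RNA of 15 mice was measured on Affymetrix mouse arrays, 3 per group, and the labels gave the groups. What the authors deposited is one linear intensity per probe set and array. The submitters' processing notes name RMA without a version, whereas these deposited numbers are not on the log2 scale RMA gives, and how they were scaled stays unknown here. The number of arrays, and not a depth, limits the precision.

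Of 22690 probe sets, 20380 have 1 gene in the platform annotation, 691 several and 1555 none, and 64 are array controls. Of a gene's probe sets with 1 gene, that with the highest mean was used (12393 genes). Symbols were compared with RefSeq names and 0 changed. After adding 16 and taking log2, a limma 3.58.1 model (R 4.3.3) was fitted to the 15 arrays with a mean for each group, leaving 10 residual and 3.88 prior degrees of freedom. The 9 contrasts were tested two-sided, with Benjamini-Hochberg adjustment over all genes within a contrast and a threshold of 0.05. The other probe sets of members were tested in a fit of all probe sets. The procedure was tested on simulated data.

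The members, the list of other pathway genes, the markers and the motifs were chosen with earlier results of these data known. Values on every array are given for the 8 called members with the smallest adjusted p in each contrast that involves Z4 or M4, and for Herpud1, Edem1, Sel1l, Syvn1, Derl3 and Vcp. Up to 4 other pathway genes per on-off contrast were named by adjusted p. Motifs were searched in RefSeq promoters of GRCm38.p6. Alternatives were constants of 1 and 64, quantile normalization, the 7435 genes whose mean signal passed the 40th percentile, a robust fit with a trend in intensity, the fit of all probe sets, replicate number as a block, only the groups compared, each array left out, and either pair of M4 arrays left out. In the last, and where 1 array was left, that array is assumed to vary like the other groups. Figures were drawn with matplotlib 3.10.9.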

Additional observations from a re-analysis of the deposited data

Results flagged for a closer look

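Herpud1 was set apart because its on-off change differed between the lines, with a Z-line change minus M-line change of 1.44 on the log2 scale (SE 0.29, adjusted p = 0.0457, limma). It rose in 3 of 3 Z4 arrays relative to every Z1 array and lay lower in 3 of 3 M4 arrays than in every M1 array. The 3 Z1 arrays were the lowest of all 15. On the second Herpud1 probe set the difference was 1.30 (SE 0.31, adjusted p = 0.0885), of like size and not called. Groups of 3 arrays are too small for the check for single arrays that lie far from their group.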

How the results depend on the processing

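Of the 48 calls of members over the 9 contrasts, 15 held under every alternative run for them, 23 when each array was left out in turn, and 0 changed sign. A constant of 64, the filter on dim genes and the intensity trend with robust spread lost 0 of the 48, all probe sets lost 2, the replicate block 6, a constant of 1 lost 11, quantile normalization 12 and a fit of only the groups compared 21. The cause of the changes was not tested, except that the filter tests fewer genes and leaving arrays out leaves fewer samples. Quantile normalization called 8 members in Z4 minus Z1 (13 otherwise), 1 in Z4 minus WT (2), 2 in Z1 minus WT (4, and 1605 genes, otherwise 3019) and 0 in M1 minus WT (2, and 1616 genes, otherwise 3274). The filter gave 4 members in Z4 minus WT and called 3191 genes in Z4 minus Z1 (otherwise 4876), 4172 in M4 minus M1 (6263), 1781 in Z1 minus WT and 1883 in M1 minus WT. A constant of 1 called 1 member and 127 genes in Z4 minus M4 (otherwise 3 and 640), 1 member and 1003 genes in Z4 minus WT (otherwise 1524 genes), 27 genes in Z1 minus M1 (16), 1 member in M1 minus WT, and 0 members and 21 genes in the interaction (otherwise 1 and 76). A constant of 64 called 5 members in Z4 minus M4, 5 in Z4 minus WT and 130 genes in the interaction. Only the groups compared called 0 members and 18 genes in Z4 minus M4, 1003 genes in Z4 minus WT, 3 members and 937 genes in M4 minus WT (otherwise 10 and 2987), 31 genes in Z1 minus M1, 2 members in Z1 minus WT, 1 in M1 minus WT, and 0 members and 18 genes in the interaction. All probe sets called 10 genes in Z1 minus M1, and 0 members and 47 genes in the interaction, and the trend called 26 genes in Z1 minus M1.

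The replicate numbers gave little sign of pairing the arrays: 0 of 24 same-number pairs had a correlation of deviations over 0.1 (range -0.17 to 0.07), with 5 of 24 correlating best with their own number. Among those 5 were the Z4 and WT pairs numbered 1, 2 and 3, with correlations of 0.04, 0.07 and 0.04. With the replicate block, 1 member was called in Z4 minus WT, and 0 members and 2 genes in the interaction.

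Without arrays M4 2 and M4 3, the members called were 7 in M4 minus M1 (otherwise 13), 0 in Z4 minus M4 (69 genes), 3 in M4 minus WT (1179 genes) and 0 in the interaction (47 genes). Without M4 1 and M4 2 they were 5 in Z4 minus M4 (1269 genes) and 4 in the interaction (805 genes). Leaving out each array in turn gave 6 to 11 members in Z4 minus Z1, 0 to 5 in Z4 minus M4 (75 to 1664 genes), 1 to 2 in Z4 minus WT (959 to 1308 genes), 6 to 12 in M4 minus WT (1935 to 3174 genes), 2 to 5 in Z1 minus WT, 0 to 3 in M1 minus WT, 0 to 6 in the interaction (2 to 1022 genes) and, in Z1 minus M1, 6 to 52 genes. The lowest counts of members came without Z1 replicate 1 (Z4 minus Z1), M4 replicate 3 (M4 minus WT) and M1 replicate 2 (M1 minus WT). In Z4 minus M4, Z4 replicate 3 and M4 replicate 2 shared the lowest count of members. In Z1 minus WT, Z1 replicate 1 shared it with other arrays. The fewest genes in Z4 minus M4 and in M4 minus WT were called without M4 replicate 2.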

Other observations

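Outside the members, the genes whose log2 signal followed Herpud1 most closely over the 15 arrays were Clp1, Txnl4a, Rhob, Tbpl1 and P4ha2, with Pearson correlations of 0.90, 0.87, 0.86, 0.84 and 0.83. The arrays share the group structure and the array-wide measures given above, so these values describe likeness of pattern only. Clp1, an RNA kinase subunit, averaged 195.5 in Z4, 84.5 in Z1, 150.1 in M4, 153.8 in M1 and 173.5 in WT, with its lowest group mean in Z1 as for Herpud1. P4ha2, a collagen prolyl hydroxylase subunit of the ER, averaged 59.4 in Z4 against 25.7 in Z1, and 44.5 in M4 against 36.9 in M1.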
